A study of Homo sapiens with 12 samples.

Results

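The gene segments from which B cells assemble antibody genes were followed through maps of nucleolus-associated domains. These domains, or NADs, are parts of chromosomes recovered with purified nucleoli, the bodies in which ribosomal RNA is made. The segments were taken from RefSeq on GRCh38.p14 as every gene whose symbol starts with IGHV, IGHD, IGHJ, IGKV, IGKJ, IGLV or IGLJ, whose biotype is a gene segment and not a pseudogene, and which belongs to chromosome 14, 2 or 22. This gave 175 segments. Of these, 174 had a position on the chromosome itself, out of 58419 placed genes, and IGLV5-39, whose coordinates belong to another scaffold, was not analysed here. The heavy chain locus IGH on chromosome 14 held 81 of the placed segments, the kappa light chain locus IGK on chromosome 2 held 49, and the lambda light chain locus IGL on chromosome 22 held 44. By kind they were 129 variable (V), 27 diversity (D) and 18 joining (J) segments, 11 to 803 bases long.

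An antibody gene does not exist as such in the germline. In developing B cells the RAG1 and RAG2 recombinase cuts beside 1 V, 1 J and, in the heavy chain, 1 D segment, and end-joining enzymes fuse them next to the constant gene of the locus. In cells outside the lymphoid lineage the segments stay separate and are as a rule silent. In B cell development the heavy and kappa loci are known to move between the nuclear periphery and the interior, which has made them model loci for nuclear position.

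The cells were H9, an established line of human embryonic stem cells, so all values come from 1 line. Naive cells, held to resemble the epiblast before implantation, were grown in RSeT, and primed cells, held to resemble a later epiblast, in mTeSR medium. State and medium therefore cannot be told apart. Neither received a further treatment. The 12 libraries formed 4 groups of 3, namely nucleolar DNA and whole-cell DNA from naive cells, and nucleolar DNA and whole-cell DNA from primed cells. The 6 libraries of a state were deposited as 1 list of NAD regions on a 10 kb grid (hg38), 61750 regions for naive and 29994 for primed cells, with no score. A value therefore has no error across cultures and no comparison has a test. The read depth is unknown, and the cell state was not checked against markers, since the lists hold no expression values.

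Each segment is flanked by a recombination signal, a heptamer and a nonamer set apart by a spacer, which the RAG recombinase binds. A signal with a short spacer is joined to one with a long spacer, which keeps like segments from being fused with one another. Signals could be read for 3 segments, those for which a RefSeq promoter window of a neighbouring non-coding gene happens to run across the end of the segment. They show 1 segment of each locus and both spacer lengths. Letters are 5′ to 3′ on the strand of the segment, and capitals mark the heptamer and the nonamer.

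IGHV3-64 (chr14:106657684-106657752, minus strand): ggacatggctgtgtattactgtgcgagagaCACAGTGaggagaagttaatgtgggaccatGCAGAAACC

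IGKV2-30 (chr2:89244751-89244808, minus strand): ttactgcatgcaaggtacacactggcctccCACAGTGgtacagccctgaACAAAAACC

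IGLJ7 (chr22:22921370-22921427, plus strand): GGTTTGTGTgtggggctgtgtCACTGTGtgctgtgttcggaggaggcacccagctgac

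The lower-case start of both V entries is the end of the segment, followed in IGKV2-30 by the few bases between its annotated end and the heptamer, and the last 30 bases of the IGLJ7 entry are the start of that segment. The heptamer searched was CACAGTG, and CACTGTG before a J segment. The heptamer of IGKV2-30 began 3 bases beyond the annotated end of the segment, and the others directly at it. The spacer was 23 bases in IGHV3-64, and 12 bases in IGKV2-30 and in IGLJ7. Against the nonamer ACAAAAACC, or its reverse complement in IGLJ7, 7 of 9 letters matched in IGHV3-64, 9 of 9 in IGKV2-30 and 8 of 9 in IGLJ7. The same heptamer, on either strand, was present in 1882 of 35116 RefSeq promoter windows of 300 bases (5.36%), so the heptamer alone is common. IGHV3-64 and IGKV2-30 lay wholly inside NADs of both lists, whereas IGLJ7 lay outside naive NADs and inside primed NADs.

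Most segments lay in NADs in both states. A segment was counted when any base of it overlapped a region, and 140 of 174 (80.5%) did so in the naive list and 172 (98.9%) in the primed list. Over all 58419 genes the shares were 61.9% in the naive list and 67.9% in the primed list. Segments are far shorter than most genes, and a short gene touches fewer regions, so genes under 1 kb are the closer background: 44.0% of these 15911 genes overlapped a naive region and 56.5% a primed region. All 140 segments of the naive list were also in the primed list. No segment was in naive NADs only, against 14.1% of genes under 1 kb. With only 2 segments outside primed NADs, this count was nearly fixed by the primed share. In primed NADs only were 32 segments (18.4%), against 26.6% of genes under 1 kb. IGHV1-69-2 and IGKV2-40 were in neither list. The median segment was covered over 100% of its length in each list, while the median gene under 1 kb was covered over 0% in the naive list and 100% in the primed list.

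The loci differed mainly in the naive list. In IGK, 45 of 49 segments (91.8%) were in naive NADs and 48 (98.0%) in primed NADs. The same shares were 36.3% in the naive list and 34.8% in the primed list for genes under 1 kb on chromosome 2, so the kappa segments stood far above their chromosome in both. In IGH, 65 of 81 segments (80.2%) were in naive NADs and 80 (98.8%) in primed NADs, beside 64.7% and 89.0% of genes under 1 kb on chromosome 14 in the naive and in the primed list. IGL had the lowest naive share, 30 of 44 (68.2%), and all 44 segments in primed NADs, beside 56.5% and 95.0% of genes under 1 kb on chromosome 22 in the naive and in the primed list. The primed counts of IGH and IGL are thus much closer to those of short genes on chromosomes 14 and 22 at large. The difference, naive minus primed, was -18.5 percentage points in IGH, -6.12 in IGK and -31.8 in IGL. Genes under 1 kb also had a lower naive than primed share on chromosomes 14 and 22, by more points than IGH and IGL. On chromosome 2 both shares of such genes were close. These backgrounds contain the segments themselves, for chromosome 14 all 81 IGH segments among 863 genes, and also segment pseudogenes under 1 kb. Neighbouring segments share bins, and the 174 segments lie in 133 distinct bins of 10 kb, so they are not separate observations.

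**Figure D1:**
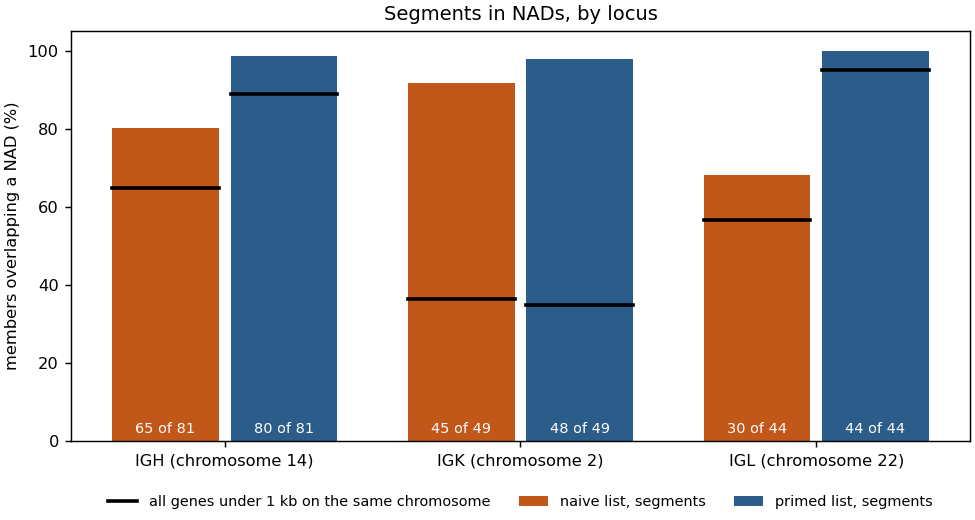
Share of immunoglobulin V, D and J segments that overlap a NAD (%), by locus, in the naive list (orange) and the primed list (blue), with 1 list per state and no error bars. Black lines mark the share of all genes under 1 kb on the same chromosome; the IGK bars, at 91.8% and 98.0%, are the ones far above their lines of 36.3% and 34.8%.

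Most segments outside naive NADs were within 1 bin of one. The 34 segments outside naive NADs were 0.789 to 17.5 kb from the nearest naive region, with a median of 4.57 kb, and 31 of the 34 were within 10 kb, the width of 1 bin. IGLV2-14 was the closest at 0.789 kb and IGHV1-69D the farthest at 17.5 kb. IGKV2-40, at 10.1 kb, and IGHV1-69-2, at 17.1 kb, were the other segments more than 1 bin away. The naive gaps had a median of 10 kb in each of the 3 spans, which by itself keeps such distances short. The distance was not measured for other genes outside naive NADs, so it is not shown to be particular to segments. When regions up to 50 kb apart were merged, 95.1% of IGH, 98.0% of IGK and 100% of IGL segments were in the naive list, and the difference from primed was -4.94 percentage points in IGH and 0 in IGK and IGL.

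**Figure D2:**
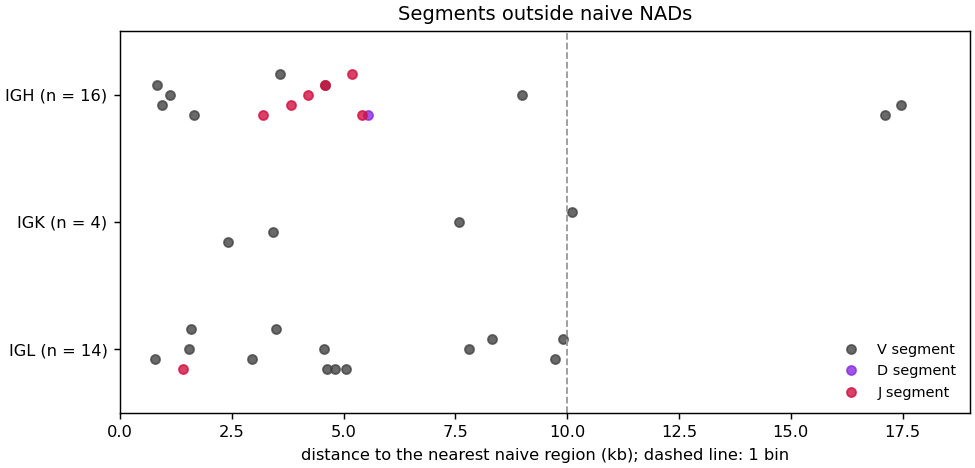
Distance in kb from each of the 34 segments outside naive NADs to the nearest naive region, by locus, coloured by kind of segment; points are spread vertically so that they can be seen. All but 3 lie left of the dashed line at 10 kb, the width of 1 bin, and the IGH J segments lie together.

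The heavy chain segments ran from IGHJ6 to IGHV7-81 over 1012 kb (chr14:105863196-106875017), close to the end of the long arm, where the last region of both lists ended at 106890000. Naive NADs covered 85.0% of that span in 8 regions and primed NADs 99.0% in 2 regions. No sequence of the span was in naive NADs only, 860 kb was in both lists and 142 kb in primed NADs only. The 500 kb below the span, toward the centromere, was covered to 55.4% by naive NADs and to 100% by primed NADs, and chromosome 14 as a whole to 44.5% by naive and 62.2% by primed NADs. Of 106 windows of 1 Mb laid end to end along chromosome 14, 89 held any naive region and 89 any primed region, and the empty ones count in the share of the whole chromosome. Among them 1 had a naive share above that of the span, and 17 had a primed share above it.

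**Figure D3:**
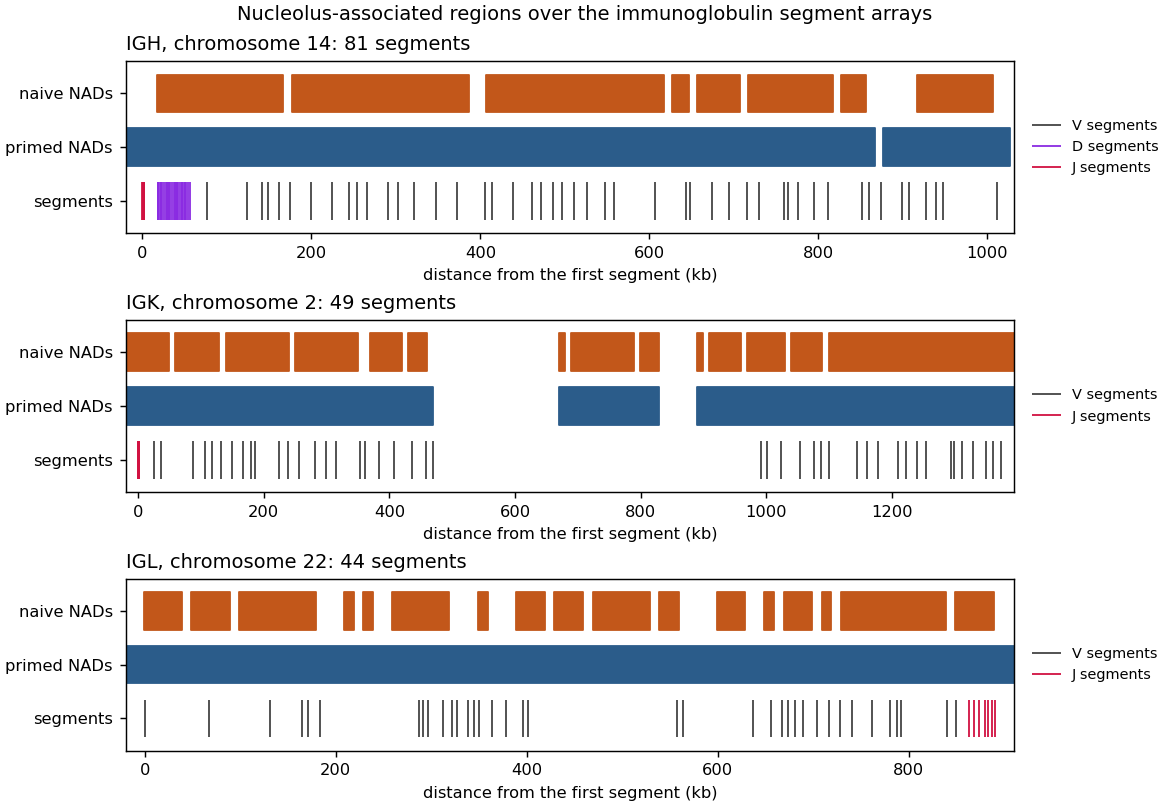
Naive NADs (orange), primed NADs (blue) and V, D and J segments (lines in the lowest track of each panel) over the 3 segment arrays, with the distance from the first segment in kb on the horizontal axis. The naive list is in 8, 14 and 17 pieces over IGH, IGK and IGL, the primed list in 2, 3 and 1, and the long empty stretch in IGK lies between the proximal and the distal V clusters.

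The J segments were the one kind absent from naive NADs in IGH. J segments encode the end of the variable domain and are the first to be joined, to a D segment, in the heavy chain. All 6 IGH J segments were outside naive NADs, at 3.20 kb (IGHJ6) and beyond from the nearest region, and all 6 were in primed NADs. They lie in a single bin, so this is 1 observation on the grid. With IGHD7-27, the D segment next to them, they formed the longest run of primed-only segments in IGH, 7 segments within 2.37 kb. A naive region ended at 105860000, before IGHJ6, and the next began at 105880001, which left 16.8 kb of the span uncovered at that end. IGHM, the first constant gene used by a B cell, lay on the other side of this gap and was in NADs of both lists. The other 26 of 27 D segments, which supply the middle of the most variable loop of the heavy chain, were in naive NADs, and all 27 were in primed NADs.

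The longest run of segments in both lists covered the rest of the D cluster and the adjacent V segments, 31 segments from IGHD1-26 to IGHV7-4-1, within 1 naive region of 150 kb (chr14:105880001-106030000). IGHV6-1, the V segment nearest to the D cluster, was among them. The 2 longest naive regions of the locus followed, each of 210 kb, with 10 segments (IGHV3-7 to IGHV3-21) and 11 segments (IGHV1-24 to IGHV3-43). IGHV3-23 lay between them, in a naive gap of 20 kb, only 0.939 kb from a region. IGHV2-5, IGHV1-46 and IGHV5-51 were each alone in a gap of 1 bin. These 4 were named after their values had been seen.

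The widest naive gap of IGH, 60 kb (chr14:106720001-106780000), held IGHV2-70D, IGHV1-69-2, IGHV1-69D and IGHV2-70. This stretch is known to vary in copy number between people, and IGHV1-69D and IGHV2-70D are named as duplicates of IGHV1-69 and IGHV2-70. IGHV1-69 itself was in a naive region of 30 kb just below the gap. In the primed list the only break of the span, 1 bin (chr14:106730001-106740000), fell inside the same stretch and held IGHV1-69-2. How reads from near-identical copies were placed is not given in the sources used here, and its part in these gaps was not tested. IGHV7-81, the last segment, was outside naive NADs by 4.58 kb and inside a primed region of 150 kb.

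The kappa segments ran from IGKJ5 to IGKV3D-7 over 1375 kb (chr2:88860568-90235368) near the centromere. Human IGK is built as 2 mirrored V clusters, a proximal one next to the J segments and a distal one whose segments carry a D in their names. Naive NADs covered 71.6% of the span in 14 regions and primed NADs 81.1% in 3 regions. Chromosome 2 as a whole was covered to 32.8% by naive and 28.4% by primed NADs, so this was a locus with high coverage on a chromosome with low coverage. None of the 242 windows of 1 Mb on chromosome 2 had a naive share above that of the span, the highest being 63%, and 22 windows had a primed share above it.

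The uncovered part was largely shared. A total of 260 kb was in neither list, and of the remaining sequence 88.3% was in naive NADs and 100% in primed NADs. Whether reads can map to this 260 kb was not tested, so a place in neither list need not mean absence from nucleoli. The shares of the whole span count it as uncovered. The shared gaps lay between the clusters, where 42.5% was naive and 50.2% primed. The larger one (chr2:89330001-89530000 in the primed list) begins at the end of the proximal cluster and held IGKV2-40, which missed the primed region by 0.115 kb. The 500 kb below the span was covered to 58.1% by naive and 100% by primed NADs. The 500 kb above it was covered to 32.9% by naive and 34.9% by primed NADs. Most of that flank lies in a stretch of 990 kb, from 90410001 to 91400000, where both lists were empty. Before this stretch the flank was primed throughout, over 175 kb, of which 165 kb was also naive. Whether reads can map to the empty stretch was not tested.

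All 5 IGK J segments were in both lists, as was IGKC, the constant gene of the kappa chain. Of the 23 proximal V segments, 19 were in naive NADs and 22 in primed NADs, and of the 21 distal V segments all 21 were in both. Sequence from the first to the last segment of the proximal cluster was covered to 84.2% by naive and 99.9% by primed NADs, and that of the distal cluster to 94.8% by naive and 100% by primed NADs. The distal cluster held the longest run of segments in both lists of this locus, 21 from IGKV2D-40 to IGKV3D-7. A naive region of 360 kb (chr2:89960001-90320000) contained 15 of them, from IGKV2D-28 to IGKV3D-7, and was the 7th longest of the 61750 naive regions, whose median length was 10 kb.

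For 17 distal V segments a proximal segment of matching name was found, and 14 of these pairs were in the same lists. In the other 3 pairs the distal segment (IGKV1D-8, IGKV2D-28 and IGKV2D-40) was wholly inside naive NADs and its proximal partner (IGKV1-8, IGKV2-28 and IGKV2-40) was outside. IGKV1-27 and IGKV2-28, next to each other in a naive gap of 20 kb, were the longest primed-only run. The only segments cut by a naive boundary anywhere in the 3 loci were proximal V segments, IGKV1-16 with 29.8% and IGKV1-39 with 79.2% of its length covered, and each was covered over 100% in the primed list. Partners can be near-identical in sequence, and how their reads were placed was not tested.

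The lambda segments ran from IGLV4-69 to IGLJ7 over 890 kb (chr22:22030994-22921435). Among the immunoglobulin loci, this one showed the greatest difference between the lists, though its flanks differed by more. It lay entirely inside 1 primed region of 2050 kb (chr22:21510001-23560000), while naive NADs covered 69.5% of the span in 17 regions, of which 5 were single bins and the longest was 110 kb. Primed-only sequence came to 271 kb and naive-only sequence to 0 kb. The flanking 500 kb was covered to 46.2% below and 54.3% above the span by naive NADs, and to 100% on both sides by primed NADs. On chromosome 22 as a whole 40.3% was naive and 68.4% primed. Naive minus primed was -30.5 percentage points over the span, -53.8 in the flank below, -45.7 in the flank above and -28.1 over the chromosome. The naive share of the span was exceeded in 5 of 50 windows of 1 Mb on that chromosome, of which 38 held any naive region.

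**Figure D4:**
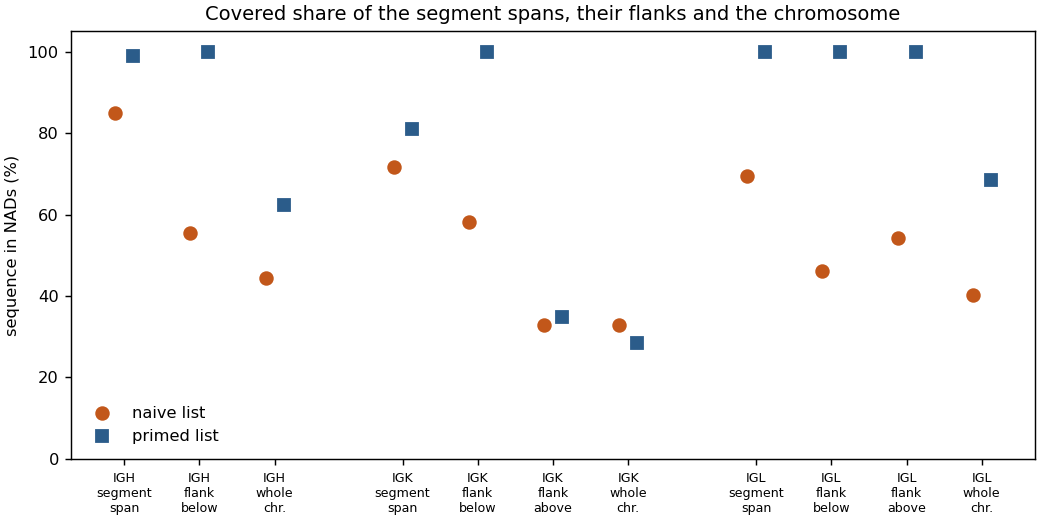
Share of sequence in NADs (%) over the span of the segments, in the 500 kb flanks below and above it, and over the whole chromosome, in the naive list (circles) and the primed list (squares). The naive share of each span, 85.0%, 71.6% and 69.5% for IGH, IGK and IGL, is above every flank shown and the chromosome. Most of the flank above IGK lies in a stretch empty in both lists, and 165 kb of the 175 kb before it is naive. Its low share is therefore no contrast with the span. The flank above IGH is not drawn because it runs past the last region of the chromosome.

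In IGL each J segment sits in front of its own constant gene, unlike in the other loci. The longest run of lambda segments in both lists was at this end, 7 segments from IGLV3-1 to IGLJ6 in a naive region of 40 kb. IGLC1, IGLC2 and IGLC3 were in both lists. IGLJ7, whose signal is printed above, was 1.40 kb past the end of that naive region, and IGLC7, its constant gene, was likewise in primed NADs only. Of the 37 lambda V segments, 24 were in naive NADs and 37 in primed NADs. The longest primed-only run was IGLV5-48, IGLV1-47, IGLV7-46 and IGLV5-45, in a naive gap of 30 kb. The other 9 V segments outside naive NADs were spread over 8 gaps along the array.

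Segments of a V family share most of their sequence. The families are interspersed along IGH, and IGKV1 segments lie among those of IGKV2 and IGKV3. In IGL, all IGLV1 segments lie before all IGLV2 and IGLV3 segments, so family and position cannot be told apart there. In the naive list 21 of 22 IGHV3 segments, 7 of 7 IGHV4 segments, 20 of 22 IGKV1 segments and 8 of 8 IGKV3 segments were in NADs. The naive count was 7 of 10 for IGHV1 and 1 of 4 for IGHV2, and each of these families had 2 segments in the 60 kb gap. Beside these counts, 64.7% of genes under 1 kb on chromosome 14, 36.3% on chromosome 2 and 56.5% on chromosome 22 overlapped a naive region. Among lambda families, 9 of 11 IGLV3, 4 of 6 IGLV1 and 3 of 6 IGLV2 segments were in naive NADs. Neither of the 2 IGLV7 segments was. In the primed list every V family was complete except IGHV1, with 9 of 10, and IGKV2, with 8 of 9.

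Long regions were frequent at these loci relative to the naive list as a whole. Only 446 naive regions (0.722% of the list) reached 100 kb, and 9 of them touched a segment span. Naive regions of any length that touched the spans numbered 8 in IGH, 14 in IGK and 17 in IGL. Of the 50 naive regions of at least 200 kb, 3 did so, namely the pair of 210 kb in IGH and the one of 360 kb in IGK. In the primed list, where regions of at least 100 kb numbered 1993 (6.64% of the list), all 6 regions that touched the spans were of that length. A long region is more likely to touch a span than a short one, so these counts lean toward long regions.

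Segment pseudogenes, V, D or J copies that cannot give a working chain, lie among the functional segments. Of 150 such pseudogenes 112 (74.7%) were in naive NADs and 150 (100%) in primed NADs, beside 44.0% and 56.5% of genes under 1 kb. By locus the naive counts were 65 of 82 in IGH, 29 of 32 in IGK and 18 of 36 in IGL, the same order as for the segments. The naive shares of genes under 1 kb on chromosomes 14, 2 and 22 were 64.7%, 36.3% and 56.5%. Their primed shares were 89.0%, 34.8% and 95.0%, so in IGH and IGL the primed share of 100% is much closer to that of the chromosome. The 14 constant genes, which encode the invariant part of each chain, were all in primed NADs and 10 were in naive NADs. Over all genes the shares were 67.9% in the primed and 61.9% in the naive list. All constant genes but IGKC lie on chromosomes 14 and 22, where most short genes were in primed NADs. IGHA2, IGHE and IGHG4, the constant genes farthest from the J segments, were outside naive NADs with IGLC7. IGHG3 was covered to 74.4% by naive NADs, and the other 9 that were in naive NADs were covered to 100%.

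T cell receptor segments, built and recombined in the same way in T cells, gave other counts. Of 184 such segments, 107 (58.2%) were in naive NADs and 123 (66.8%) in primed NADs, beside 44.0% and 56.5% of genes under 1 kb in the naive and in the primed list. The alpha chain segments resembled those of IGH, with 79 of 104 in naive NADs and 104 in primed NADs, and they lie on chromosome 14 as well, where 64.7% of genes under 1 kb were in naive and 89.0% in primed NADs. That background includes the IGH segments and the alpha and delta segments under 1 kb, so it is not separate from these arrays. The delta segments, nested in the alpha array, had 3 of 10 in naive NADs and 10 in primed NADs. By sequence, however, 87.1% of the delta segments was in naive NADs, beside 83.6% of the alpha segments. The beta segments had 19 of 59 in naive NADs and 8 in primed NADs, and the gamma segments 6 of 11 in naive NADs and 1 in primed NADs. Both lie on chromosome 7, where 35.5% of genes under 1 kb were in naive and 38.2% in primed NADs. In naive NADs only were 21 T cell receptor segments, 16 of them beta and 5 gamma. No alpha or delta segment was, and no immunoglobulin segment. Only 2 immunoglobulin segments were outside primed NADs, so few could have been.

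**Figure D5:**
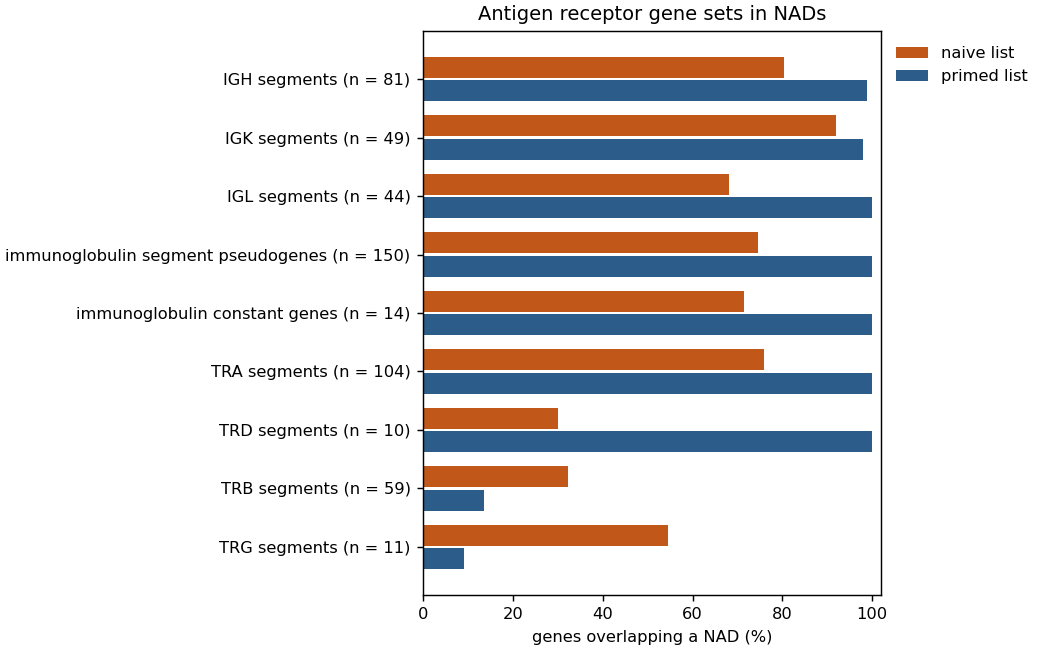
Share of genes overlapping a NAD (%) for the immunoglobulin segments of each locus, their pseudogenes, the constant genes and the T cell receptor segments, in the naive list (orange) and the primed list (blue). TRB and TRG are the sets with a longer naive bar than primed bar.

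Other genes inside and beside the arrays shared the primed coverage. In the IGL array, VPREB1 and IGLL5, which encode a part of the surrogate light chain and a lambda-like protein, were covered to 100% in both lists, as were ZNF280A, PRAME and GGTLC2. ZNF280B was covered to 59.6% in the naive and 100% in the primed list. In the IGH array, ADAM6 and the non-coding gene FAM30A were covered to 100% in both lists. The closest protein-coding genes below IGH were TMEM121, at 0% in the naive and 100% in the primed list, and TEDC1, at 100% in both. Below IGK, RPIA was covered to 35.3% and EIF2AK3 to 58.0% in the naive list, and both to 100% in the primed list. Across the centromere from IGK, AQP7B was covered to 100% in both lists and TEKT4 to 0% in the naive and 100% in the primed list. Beside IGL, the naive share was 61.2% for TOP3B, 8.52% for PPM1F, 50.1% for RSPH14 and 54.1% for GNAZ, and the primed share was 100% for each.

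Short RNA genes also lie in the arrays. The hairpin of MIR650 overlaps the start of IGLV2-8, and MIR4537 lies between IGHM and IGHJ6, just inside the naive region that ends before the J segments. Both were covered to 100% in the naive and in the primed list. Their mature sequences are shown because they mark positions just before a V segment and beside the J gap, with the seed, bases 2 to 8, in capitals; the 2 seeds differ.

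hsa-miR-650 (chr22:22822791-22822811, plus strand): aGGAGGCAgcgcucucaggac

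hsa-miR-4537 (chr14:105859532-105859553, minus strand): uGAGCCGAgcugagcuuagcug

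The genes that act on the segments are scattered over the genome. Of 15 factors of V(D)J recombination, 13 overlapped naive NADs and 11 primed NADs. The list as fixed held TDG, an enzyme of base excision repair, and without it the counts were 12 of 14 in naive and 11 of 14 in primed NADs. Over all genes, 61.9% overlapped a naive region and 67.9% a primed one. Most of the listed genes are longer than a segment, and a longer gene touches more regions. This background is not matched for length. Of the sequence of the 15 factors, 41.3% was in naive and 43.0% in primed NADs. RAG2 was covered to 0% in the naive and 100% in the primed list, whereas RAG1, beside it, was covered to 42.9% in the naive and 85.6% in the primed list. PAXX, an end-joining factor, was likewise in primed NADs only. In naive NADs only were LIG4, the ligase that seals the joint, and HMGB2, a cofactor of the recombinase, each at 100%, XRCC5, a Ku subunit, at 21.3%, and TDG at 61.4%. Of 15 regulators of the B lineage 13 overlapped naive and 13 primed NADs, and 40.7% of their sequence was in naive and 53.3% in primed NADs. MEF2C was in naive NADs only at 32.1%, SPI1 in primed NADs only at 100%, and POU2AF1 in neither. Of 16 genes of the B cell receptor complex and surface, 11 overlapped naive and 15 primed NADs. Their sequence was covered to 26.1% by naive and 60.4% by primed NADs. Among those in primed NADs only were VPREB3 at 100% and CD79B at 35.1%, and CR2 was in neither.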

How the data were processed

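For each state the authors deposited 1 file of regions, with chromosome, start and end on hg38 and no score, count or p-value; per the labels it stands for the 6 libraries of the state. The submitters' processing notes name BWA, SAMtools 1.10 and SICER. Not given in the sources used here are their roles and settings, how 3 replicates became 1 list, and the depth. Region limits lie on a 10 kb grid apart from 8 naive and 12 primed regions, so 10 kb is the precision of any boundary.

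Segment positions came from RefSeq (GRCh38.p14, the assembly of hg38). A gene was called in NADs when any base overlapped a region. Python 3.11.15, numpy 2.4.6, pandas 2.3.3, scipy 1.17.1 and matplotlib 3.10.9 were used, and the overlap code was checked on made-up regions. With 1 list per state no test was made. Values were set beside all genes and genes under 1 kb.

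The segments, the gene lists and the rule for named genes were chosen with earlier results of these data known. The rule names, for each locus, the first and last segment, the ends of the longest run in each class, partly covered segments, D and J clusters, constant and bracketing genes, and list genes in NADs of 1 state only. Some genes of these lists are not reported here by name. Other names were chosen after their values were seen. The planned search for the octamer and the recombination signals before each segment could not be made, since 0 of 174 segments matched a RefSeq promoter window. Signals were read instead where another gene's window covers a segment end, and the planned choice of printed segments was replaced by these. Alternatives were merged gaps, a minimum region length, at least 50% coverage of the gene body, added pseudogenes, distinct bins, IGK without distal copies and, chosen after seeing the data, the recombination factors without TDG.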

Additional observations from a re-analysis of the deposited data

How the results depend on the processing

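Of the values recomputed under the alternatives, 51 stayed inside the 95% interval of the reported value and 11 moved outside it. No difference changed sign. For a share this was a Wilson interval. For a difference it was the Wilson interval of the naive share less the primed share, which was held fixed, so the error of the primed share is left out. Leaving TDG out of the list of recombination factors, chosen after seeing the data, accounts for 2 of the 51. All 11 arose when regions up to 50 kb apart were merged, which by construction closes the short naive gaps. Segments in naive NADs then came to 95.1% in IGH, 98.0% in IGK and 100% in IGL, and IGH segments in primed NADs to 100%. The naive minus primed difference became -4.94 percentage points in IGH, 0 in IGK and 0 in IGL. Covered shares of the span became 94.1% (IGH, naive), 80.4% (IGK, naive), 100% (IGL, naive) and 100% (IGH, primed). The interval treats segments or bins as independent, which neighbours are not, and served only to sort the alternatives. No paired analysis was possible because each state has 1 list and the lists carry no replicates. Depth, which the lists do not give, limits what an uncovered bin can mean.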

Other observations

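Copies of V segments outside the 3 loci, known as orphons, numbered 3 among placed non-pseudogene genes. IGHV3OR16-8, on chromosome 16, was covered to 100% in both lists. IGLV8OR8-1, on chromosome 8, was covered to 58.9% in the naive and 100% in the primed list. IGHV3OR16-17, on chromosome 16, was covered to 0% in the naive and 100% in the primed list. MIR8071-1 and MIR8071-2 encode the same mature miRNA from positions among the heavy chain constant genes, and were covered to 0% (MIR8071-1) and 100% (MIR8071-2) in the naive list and to 100% in the primed list.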
